A study of Homo sapiens with 6 samples.

Results

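The genes described here are the feedback inhibitors of growth factor and stress kinase signalling and the early response genes that the same kinases switch on, measured in U87 cells after knockdown of the long noncoding RNA LINC00152. U87 is an established human glioblastoma cell line. The members were listed by name, though with earlier results of these data known: the 24 listed genes whose symbol is DUSP followed by a number, and 28 further genes, namely SPRY1, SPRY2, SPRY4, SPRED1, SPRED2, SPRED3, ETV1, ETV4, ETV5, EGR1, EGR2, EGR3, FOS, FOSB, FOSL1, FOSL2, JUN, JUNB, JUND, ATF3, IER2, IER3, IER5, MYC, PHLDA1, HBEGF, AREG and EREG. Together they are 52 of the 27192 genes listed. Of these, 43 had enough counts to be tested, as did 14078 of all genes. The 9 members that were not tested were DUSP2, DUSP8, DUSP9, DUSP13, DUSP15, DUSP21, DUSP26, IER3 and AREG.

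The control group was U87 transfected with siGL2, a nonspecific siRNA, and the knockdown group, siLINC00152, was U87 transfected with 2 LINC00152 siRNAs together. Both groups went through a first transfection, a second one 24 hours later and collection a further 24 hours on, so the lipid reagent and the handling were shared. Each group had 3 libraries, with the letters A, B and C. Nothing in the labels says that these were separate cultures, so p-values cover only how far these 6 libraries spread, a spread that may be technical. Because the 2 siRNAs were used together, an effect of either siRNA on other transcripts and an effect of losing LINC00152 cannot be told apart.

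A mitogen-activated protein kinase (MAPK) cascade passes a signal from a receptor through RAS and RAF to the kinases ERK, JNK or p38. ERK and the other kinases act on transcription factors, which within minutes induce early response genes such as EGR1, FOS and JUN, and more slowly the dual-specificity phosphatases (DUSPs), Sproutys and Spreds that dampen the same cascade. In glioma this cascade is often kept active by receptor amplification or by loss of the RAS inhibitor NF1. The RNA of the feedback genes is often read as an indirect sign of pathway output. Phosphorylation was not measured in these libraries.

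The promoter sequences of 3 members are shown because their RNAs changed at least 1.5-fold and their promoters hold letters known for early response genes. EGR1 and EGR2, which moved in opposite directions, both have the CArG box, the word bound by serum response factor. DUSP1 has a cAMP response element, TGACGTCA. Each line gives the 150 bases before the start of transcription, 5′ to 3′ on the gene's own strand, from RefSeq on GRCh38.p14, with these words in capitals.
EGR1, chr5:138465329-138465478, plus strand: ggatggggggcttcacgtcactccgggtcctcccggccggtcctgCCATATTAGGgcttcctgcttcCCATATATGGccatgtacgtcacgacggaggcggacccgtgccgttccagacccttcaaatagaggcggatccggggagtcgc
EGR2, chr10:62816367-62816516, minus strand: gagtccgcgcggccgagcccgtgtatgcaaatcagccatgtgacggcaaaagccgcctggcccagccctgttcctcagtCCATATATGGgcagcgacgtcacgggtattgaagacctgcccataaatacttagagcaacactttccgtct
DUSP1, chr5:172771196-172771345, minus strand: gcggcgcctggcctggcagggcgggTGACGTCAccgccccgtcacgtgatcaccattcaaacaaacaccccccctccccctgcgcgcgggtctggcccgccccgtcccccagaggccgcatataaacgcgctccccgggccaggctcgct

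The EGR1 sequence held 2 CArG boxes, at bases 105 to 96 and 83 to 74 before the start. The EGR2 sequence held 1, at bases 71 to 62, in 1 of the 3 EGR2 start windows listed. The DUSP1 element lay at bases 125 to 118, and the TATA word TATAAA at bases 30 to 25. The table of promoters had 40 of the 52 members, with 59 windows of 250 bases before a start. The CArG box was in 3.39% of the member windows and in 1.16% of all 35116 windows (1.10% of the 15056 windows of tested genes). TGACGTCA was in 6.78% of the member windows, in AREG, DUSP1, DUSP8 and JUND, and in 1.65% of all windows (2.40% of those of tested genes). The EGR word GCGNGGGCG was in 16.9% of the member windows and 8.41% of all, but in 12.7% of those of tested genes. TATAAA was in 13.6% of the member windows, 10.7% of all and 6.16% of those of tested genes. The AP-1 word TGANTCA was in 1.69% of the member windows, only in SPRED3 among the members in the table, and in 6.57% of all windows (4.81% of those of tested genes). The ETS word CCGGAAG was in 5.08% of the member windows, 8.52% of all and 13.3% of those of tested genes. All words were searched on both strands, some overlap each other, and a match is a description of the letters, not of binding.

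LINC00152, annotated as CYTOR at chr2:87454781-87636740 on the plus strand (GENCODE 29, GRCh38), fell from 15.1 ± 1.18 to 2.67 ± 0.108 CPM (counts scaled by TMM-adjusted library sizes, mean ± SD over 3 libraries). This was a log2 fold change of −2.51 ± 0.09 (± SE, here and for every log2 fold change), with an adjusted p of 4.55e-15 by edgeR's quasi-likelihood test. Of the 75-base stretches of LINC00152, 20.7% also occur in other genes, mainly MIR4435-2HG and AC068491.4. How multi-mapping reads were treated was not given in the sources used here. Total counts per library were between 41963120 and 46234763, and 3 counts came to between 0.0634 and 0.0730 CPM. The siGL2 A library stood apart from siGL2 B and C, with a chi-square per degree of freedom of 11.5 and 14.5 against 3.02 between B and C. Results were recomputed without each library. The glioma markers VIM and CD44 were at 8974 and 2696 CPM in the control group, and GFAP, an astrocyte marker, was at 0.154 CPM. The other astrocyte markers S100B, SOX2 and AQP4 were at or near 0, and of the astrocyte and glioma list VIM, CD44, NES and SLC1A3 were the ones clearly detected. Markers of other cell types were mixed: the immune markers PTPRC, AIF1 and CX3CR1 and the neuronal marker RBFOX3 were at or near 0, while the immune markers CD68 and CSF1R were at 332 and 22.6 CPM and the neuronal markers TUBB3, SNAP25 and MAP2 at 227, 63.7 and 18.1 CPM in the control group. CSF1R was at 13.3 CPM and SNAP25 at 42.8 CPM in the knockdown group, and the part of such markers in the results was not tested.

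Members moved in both directions after the knockdown. At an adjusted p under 0.05 (edgeR, Benjamini-Hochberg over all tested genes), 24 of the 43 tested members rose, 12 fell and 7 did not pass. Of all 14078 tested genes, 64.3% were called, 32.2% as higher and 32.2% as lower, so a call by itself sets few genes apart in these libraries. With a change of at least 1.5-fold added, 11 members rose and 5 fell, which is 37.2% of the tested members beside 20.0% of all tested genes (9.53% higher and 10.4% lower). At 2-fold or more, DUSP5, EGR2, DUSP18 and DUSP10 rose and SPRY4 and EGR1 fell, beside 6.61% of all tested genes (3.08% higher and 3.53% lower). The median log2 fold change was 0.20 over the tested members and 0.00 over all tested genes, and the median of its size was 0.45 against 0.28. The CPM ranges of the groups did not overlap for 38 of the 43 tested members, and for 67.7% of all tested genes. As these are bulk RNA values, fewer cells with a transcript and less RNA per cell cannot be told apart.

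**Figure D1:**
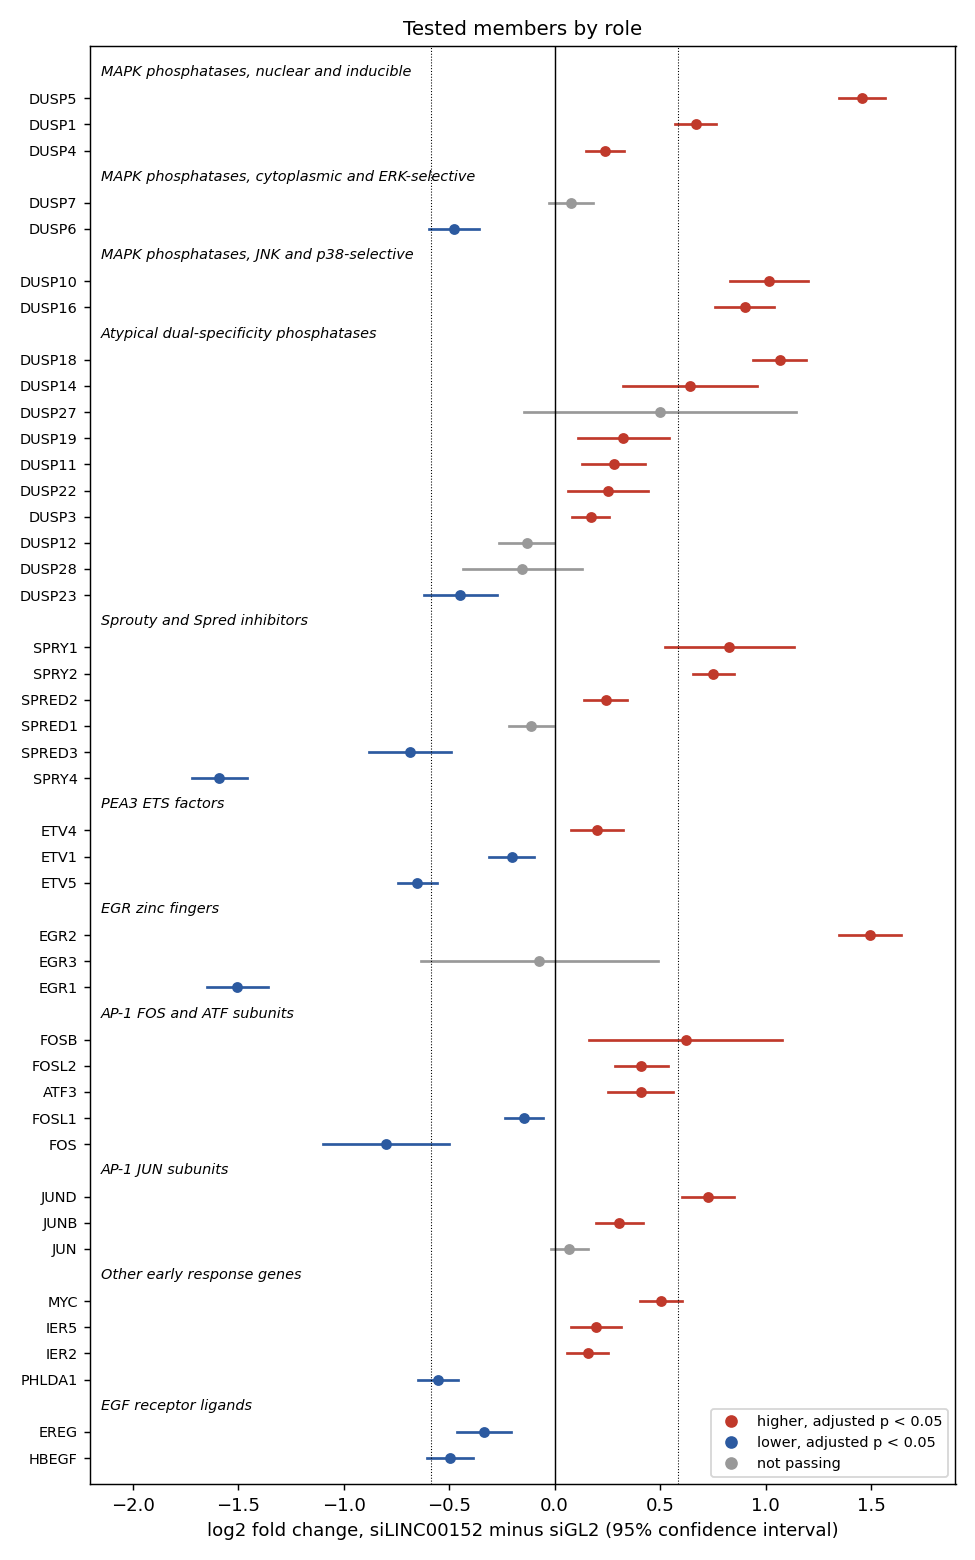
Log2 fold change of the 43 tested members, siLINC00152 minus siGL2, grouped by role, with points for the estimates and bars for the 95% confidence intervals (dotted lines mark 1.5-fold). Both directions occur within the Sprouty, EGR and FOS groups, with SPRY4 lowest at −1.59 and EGR2 and DUSP5 highest at 1.49 and 1.46.

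The typical MAPK phosphatases, which remove phosphate from both the threonine and the tyrosine of an activated kinase, mostly rose: 5 of the 7 tested were higher, 1 was lower and 1 did not pass (median log2 fold change 0.67). That is 85.7% called and 57.1% past 1.5-fold, beside 64.3% and 20.0% of all tested genes. All 3 tested members of the nuclear, inducible class rose. DUSP5, a nuclear phosphatase selective for ERK (chr10:110497838-110511544, plus strand), was at 26.3, 28.0 and 25.2 CPM in siGL2 A, B and C and at 74.0, 71.2 and 73.2 CPM in siLINC00152 A, B and C. Every knockdown library was above every control library, and the log2 fold change was 1.46 ± 0.05 (2.75-fold, adjusted p = 3.76e-15, edgeR). DUSP1 acts on p38 and JNK as well as ERK and is itself an early response gene (chr5:172768090-172771195, minus strand). It was at 77.8, 83.6 and 80.0 CPM in the control libraries and at 131, 127 and 126 CPM in the knockdown libraries. These groups were separate, with a log2 fold change of 0.67 ± 0.05 (1.59-fold, adjusted p = 8.6e-11, edgeR). DUSP4, a close relative of DUSP1, moved by less, from 111, 114 and 114 CPM to 133, 132 and 136 CPM (log2 fold change 0.24 ± 0.04, adjusted p = 7.14e-05, edgeR). DUSP2, best known from lymphoid cells, had 1 count in siLINC00152 A and 0 in the other libraries.

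The cytoplasmic, ERK-selective phosphatases did not rise. DUSP6, the main cytoplasmic ERK phosphatase (chr12:89347232-89353271, minus strand), was at 88.8, 81.6 and 86.6 CPM in siGL2 and at 55.8, 65.0 and 64.0 CPM in siLINC00152. The knockdown libraries were all lower, by a log2 fold change of −0.48 ± 0.06 (1.39-fold lower, adjusted p = 2.99e-07, edgeR). Of the exonic bases of DUSP6, 39.4% are overlapped by the opposite-strand transcript AC024909.2, and whether reads were counted by strand was not given in the sources used here. DUSP7, of the same class, was at 48.3 ± 1.83 CPM and 51.0 ± 1.45 CPM, with overlapping groups and a 95% interval of −0.02 to 0.18 for its log2 fold change (adjusted p = 0.172, edgeR). DUSP9 had between 2 and 7 counts in each library and was not tested.

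Both tested phosphatases that prefer JNK and p38 rose by at least 1.5-fold. Of all tested genes, 32.2% were called higher, and 9.53% were called higher with at least 1.5-fold change. DUSP10 (chr1:221701424-221742176, minus strand) was at 7.12, 6.55 and 5.35 CPM in siGL2 and at 12.8, 12.2 and 13.3 CPM in siLINC00152. Its log2 fold change was 1.02 ± 0.09 (2.02-fold, adjusted p = 3.48e-09, edgeR). DUSP16 (chr12:12474210-12562383, minus strand) was at 14.9, 13.6 and 13.0 CPM and at 25.4, 24.3 and 27.6 CPM, with a log2 fold change of 0.90 ± 0.07 (1.87-fold, adjusted p = 2.97e-10, edgeR). In both genes the lowest knockdown library was above the highest control library, and groups do not overlap for 67.7% of all tested genes. DUSP8 had 3 to 5 counts in the control libraries and 6 to 11 in the knockdown libraries, too few to be tested. It passed as higher with no filter on low counts (adjusted p = 0.0361, edgeR). Leaving out siGL2 B, siGL2 C or siLINC00152 A let it be tested, and it then passed (adjusted p = 0.0464, 0.0318 and 0.0122, edgeR). In those leave-out fits it met the count filter only through siLINC00152 B and C, with 11 counts each, the group where it is high. They are therefore no support for a rise of DUSP8.

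The order of the phosphatases changed with these differences. Per kilobase of annotated exon, DUSP1 was the most abundant typical phosphatase in both groups, at 39.8 RPKM (CPM divided by exonic length in kilobases) in siGL2 and 63.3 in siLINC00152. DUSP6 was next in siGL2 at 18.8 RPKM and stood at 13.6 in siLINC00152, below DUSP5, which went from 10.4 to 28.5 RPKM. As a share of the summed RPKM of the 10 typical phosphatases, DUSP5 went from 9.95 ± 0.381% to 19.1 ± 0.210% and DUSP6 from 18.1 ± 0.973% to 9.11 ± 0.804% (SD, n = 3; exact permutation test, two-sided, p = 0.1 for each). The summed level was 104 ± 1.55 RPKM in the control group and 149 ± 1.35 RPKM in the knockdown group. With 3 libraries against 3, a p of 0.1 is the smallest that this test can give, and none of the 32 shares and sums tested in this way can pass a threshold of 0.05, with or without adjustment.

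The 14 other DUSP genes, the atypical phosphatases, encode mostly small enzymes, of which several act on substrates other than MAPKs. Of the 10 tested, 6 rose, 1 fell and 3 did not pass (median log2 fold change 0.27). That is 70% called and 20% past 1.5-fold, close to the 64.3% and 20.0% of all tested genes. DUSP18 (chr22:30652051-30667890, minus strand) was at 13.6, 12.5 and 13.7 CPM in siGL2 and at 27.3, 27.9 and 28.2 CPM in siLINC00152. The groups were far apart, with a log2 fold change of 1.07 ± 0.06 (2.10-fold, adjusted p = 3.49e-12, edgeR). The opposite-strand gene SLC35E4 overlaps 38.6% of its exonic bases, and SLC35E4 itself went from 41.3 ± 2.23 to 55.0 ± 3.25 CPM (log2 fold change 0.42 ± 0.06). DUSP14 (chr17:37489831-37513501, plus strand), a low-level member, was at 1.68, 1.43 and 1.31 CPM and at 2.48, 2.45 and 1.97 CPM, with a log2 fold change of 0.64 ± 0.15 (1.56-fold, adjusted p = 0.00101, edgeR). DUSP3, which acts on ERK and JNK in the nucleus, was the most abundant of the class per length, at 169, 162 and 165 CPM in siGL2 and at 186, 185 and 188 CPM in siLINC00152 (log2 fold change 0.17 ± 0.04, adjusted p = 0.00149, edgeR). DUSP11, an RNA phosphatase, also rose, by a log2 fold change of 0.28 ± 0.07. DUSP23 fell from 8.07 ± 0.360 to 5.92 ± 0.263 CPM.

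The calls of DUSP19 and DUSP22 were lost when some single libraries were left out. DUSP19 was at 4.29, 5.76 and 4.95 CPM in siGL2 and at 6.62, 5.88 and 6.29 CPM in siLINC00152 (log2 fold change 0.33 ± 0.10, adjusted p = 0.00942, edgeR), and no longer passed without siGL2 A (adjusted p = 0.05) or without siLINC00152 A (adjusted p = 0.0513). DUSP22, whose groups overlap, went from 6.68 ± 0.725 to 7.94 ± 0.537 CPM (adjusted p = 0.0201, edgeR). Without siGL2 C, siLINC00152 A or siLINC00152 B its adjusted p was 0.123, 0.0747 or 0.0771. DUSP12, DUSP27 and DUSP28 did not pass, with log2 fold changes of −0.13 ± 0.06, 0.50 ± 0.31 and −0.15 ± 0.14, although DUSP12 had an adjusted p of 0.0102 without siGL2 A. DUSP13 and DUSP21 had 0 counts in every library, which allows up to 3 counts in each, and DUSP15 and DUSP26 had at most 1 count in any library.

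**Figure D2:**
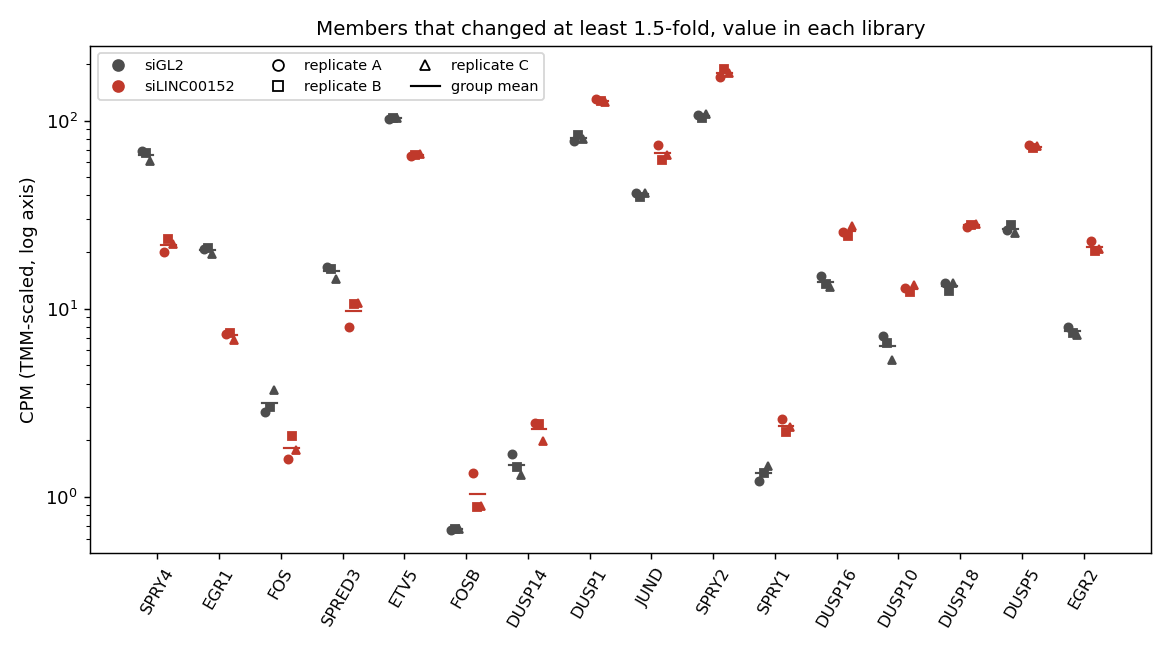
CPM (log axis) of the 16 members that passed the test with at least a 1.5-fold change, with 1 point per library, a symbol for each replicate letter and a line for each group mean. In all 16 genes the siGL2 and siLINC00152 points do not overlap, but the genes were picked by a test on these same libraries. Over all tested genes, 67.7% have groups that do not overlap. The widest spread relative to its mean is that of FOSB in siLINC00152, where replicate A stands at 1.34 CPM.

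The Sproutys, which block signalling between receptor and RAF, split. SPRY4 (chr5:142310427-142326455, minus strand) was at 69.3, 67.5 and 61.2 CPM in siGL2 and at 20.0, 23.6 and 22.2 CPM in siLINC00152. It fell in every knockdown library below every control library, by a log2 fold change of −1.59 ± 0.06 (3.01-fold lower, adjusted p = 1.53e-14, edgeR), the largest fall among the tested members. SPRY2 (chr13:80335976-80340951, minus strand) went the other way, from 107, 104 and 108 CPM to 170, 188 and 179 CPM. Its log2 fold change was 0.75 ± 0.05 (1.69-fold, adjusted p = 2.01e-11, edgeR). SPRY1 (chr4:123396795-123403760, plus strand), at a much lower level, was at 1.22, 1.34 and 1.46 CPM in siGL2 and at 2.60, 2.21 and 2.35 CPM in siLINC00152 (log2 fold change 0.83 ± 0.15, 1.78-fold, adjusted p = 4.85e-05, edgeR).

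SPRY4 held 27.2 ± 1.59% of the summed RPKM of the 3 Sproutys in the control group and 6.86 ± 0.209% in the knockdown group, while SPRY2 went from 71.8 ± 1.52% to 91.9 ± 0.0538% (exact permutation test, two-sided, p = 0.1 for each). The sum went from 48.7 ± 0.658 to 64.1 ± 3.32 RPKM. The Spreds, which recruit the RAS inhibitor NF1 to the membrane, also moved both ways. SPRED3 (chr19:38388421-38399587, plus strand) fell from 16.6, 16.3 and 14.5 CPM to 8.01, 10.5 and 10.8 CPM (log2 fold change −0.69 ± 0.09, 1.61-fold lower, adjusted p = 3.1e-06, edgeR). SPRED2 rose from 87.2 ± 3.54 to 103 ± 4.54 CPM. SPRED1 was at 105, 104 and 108 CPM and at 91.2, 104 and 98.3 CPM, and did not pass (log2 fold change −0.11 ± 0.05, adjusted p = 0.056, edgeR). Without siGL2 A or siLINC00152 B its adjusted p was 0.0315 or 0.024.

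The PEA3 factors ETV1, ETV4 and ETV5 are ETS-family transcription factors that, like SPRY4 and DUSP6, are widely used as readouts of receptor and ERK signalling. ETV5 (chr3:186046308-186110318, minus strand) was at 102, 104 and 103 CPM in siGL2 and at 64.7, 66.0 and 66.3 CPM in siLINC00152. The replicates were close together and the groups separate, with a log2 fold change of −0.65 ± 0.04 (1.57-fold lower, adjusted p = 7.88e-11, edgeR). ETV1 (chr7:13891228-13991425, minus strand), the most abundant of the 3 per length, was at 325, 310 and 328 CPM and at 256, 297 and 284 CPM, a log2 fold change of −0.20 ± 0.05 (adjusted p = 0.00155, edgeR). ETV4 rose by a log2 fold change of 0.20 ± 0.06, from 17.9 ± 0.485 to 20.5 ± 0.618 CPM (adjusted p = 0.00529, edgeR). Scaled by library size alone, ETV4 had an adjusted p of 0.0525.

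The EGR zinc finger factors showed opposite changes of almost equal size. EGR1 (chr5:138465490-138469315, plus strand), a factor known to be induced by serum through CArG boxes, was at 20.7, 21.1 and 19.5 CPM in siGL2 and at 7.38, 7.45 and 6.81 CPM in siLINC00152. The replicates lay within a narrow range in each group, and the log2 fold change was −1.50 ± 0.07 (2.83-fold lower, adjusted p = 1.74e-13, edgeR). EGR2 (chr10:62811996-62919900, minus strand), a factor known for its part in myelination, was at 7.97, 7.47 and 7.27 CPM and at 22.9, 20.3 and 20.8 CPM. Its log2 fold change was 1.49 ± 0.07 (2.82-fold, adjusted p = 2.61e-13, edgeR). The groups did not overlap for either gene, as for 67.7% of all tested genes.

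Per length, EGR1 went from 6.51 to 2.30 RPKM and EGR2 from 2.41 to 6.80 RPKM, so the more abundant of the pair in siGL2 was the less abundant in siLINC00152. The share of the summed EGR level held by EGR1 was 71.2%, 73.0% and 72.0% in siGL2 and 24.1%, 26.5% and 24.4% in siLINC00152, and that of EGR2 was 26.7 ± 0.789% and 73.9 ± 1.24%. The sum was 9.04 ± 0.367 RPKM and 9.20 ± 0.493 RPKM (exact permutation test, two-sided, p = 0.8). These EGR shares were computed after the values of both genes had been seen. EGR3 was near the limit of the test at 0.487 ± 0.0795 and 0.463 ± 0.105 CPM, with a 95% interval of −0.63 to 0.49 for its log2 fold change (adjusted p = 0.829, edgeR).

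**Figure D3:**
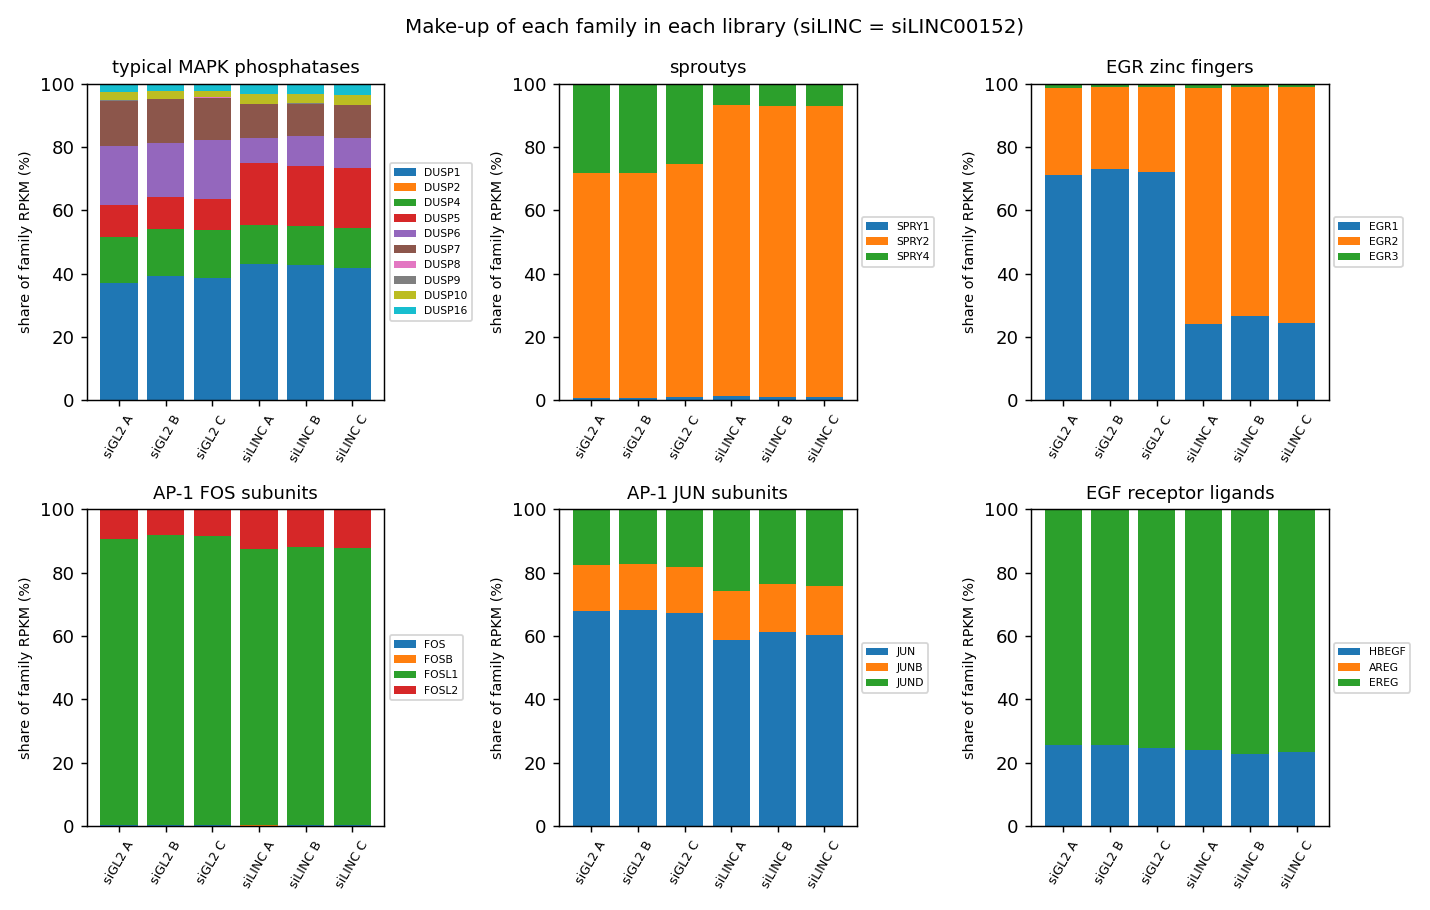
Share of a family's summed RPKM (percent, vertical axis) held by each member in each of the 6 libraries, 1 stacked bar per library and 1 panel per family. EGR2 takes the place of EGR1 as the main EGR transcript in all 3 siLINC00152 libraries, SPRY4 shrinks beside SPRY2, and DUSP5 widens while DUSP6 narrows.

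AP-1 is a dimer of a JUN protein with a FOS, JUN or ATF protein. Among the FOS and ATF members, 3 rose and 2 fell (100% called and 40% past 1.5-fold, beside 64.3% and 20.0% of all tested genes). FOS (chr14:75278774-75282230, plus strand), the rapidly induced subunit, was low in both groups, at 2.81, 2.99 and 3.68 CPM in siGL2 and at 1.58, 2.09 and 1.78 CPM in siLINC00152 (log2 fold change −0.80 ± 0.14, 1.74-fold lower, adjusted p = 5.98e-05, edgeR). FOSL1 (chr11:65892049-65900573, minus strand), the subunit kept up by sustained ERK signalling, was the member with the highest level per length, at 252 ± 8.7 RPKM in siGL2 and 228 ± 4.5 RPKM in siLINC00152. Its CPM values were 482, 455 and 454 in the control libraries and 425, 422 and 409 in the knockdown libraries, a small fall that passed the test (log2 fold change −0.15 ± 0.04, adjusted p = 0.00551, edgeR). FOSL2 rose from 181, 152 and 153 CPM to 227, 209 and 210 CPM (log2 fold change 0.41 ± 0.06, adjusted p = 9.59e-06, edgeR).

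FOSL1 made up 91.0 ± 0.486% of the summed RPKM of the 4 FOS genes in siGL2 and 87.5 ± 0.388% in siLINC00152. FOSL2 went from 8.59 ± 0.533% to 12.2 ± 0.408%, a difference of 3.59 percentage points per length and of 8.11 in counts without length. ATF3, a stress-induced partner of JUN, rose from 8.65 ± 0.426 to 11.5 ± 0.596 CPM (log2 fold change 0.41 ± 0.07, adjusted p = 6.72e-05, edgeR). FOSB was at 0.668, 0.671 and 0.676 CPM and at 1.34, 0.880 and 0.892 CPM, with siLINC00152 A well above the rest (log2 fold change 0.62 ± 0.22, adjusted p = 0.0175, edgeR). Without that library the log2 fold change was 0.40 (adjusted p = 0.128), and DESeq2 gave an adjusted p of 0.0573.

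Of the JUN subunits, JUND and JUNB rose and JUN did not pass. That is 66.7% called, close to the 64.3% of all tested genes, and 33.3% past 1.5-fold beside 20.0%. JUND (chr19:18279760-18281622, minus strand), the subunit least dependent on acute stimulation, was at 41.2, 39.3 and 41.0 CPM in siGL2 and at 74.0, 61.9 and 65.3 CPM in siLINC00152. All knockdown libraries were higher, siLINC00152 A the most, with a log2 fold change of 0.73 ± 0.06 (1.66-fold, adjusted p = 1e-09, edgeR). JUNB was at 33.6, 32.7 and 32.2 CPM and at 42.9, 38.8 and 40.3 CPM (log2 fold change 0.31 ± 0.05, adjusted p = 3.99e-05, edgeR). HOOK2, which went the other way (log2 fold change −0.38 ± 0.07), overlaps 14.2% of the exonic bases of JUNB on the opposite strand. JUN (chr1:58780788-58784327, minus strand), the most abundant subunit per length, was at 304, 298 and 290 CPM and at 319, 307 and 309 CPM. Its log2 fold change had a 95% interval of −0.02 to 0.16 (adjusted p = 0.156, edgeR), and without siGL2 A its adjusted p was 0.0433. JUN went from 67.8 ± 0.479% to 60.2 ± 1.34% of the summed RPKM of the 3 JUN genes, and JUND from 17.6 ± 0.491% to 24.5 ± 1.22%.

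Among the other early response genes, MYC, a growth-promoting transcription factor, rose from 52.4, 48.0 and 49.4 CPM to 70.4, 71.8 and 70.4 CPM (log2 fold change 0.51 ± 0.05, 1.42-fold, adjusted p = 1.26e-08, edgeR). PHLDA1 (chr12:76025447-76033932, minus strand), an early gene used in signatures of MEK activity, was the most abundant of the group per length, at 447, 453 and 457 CPM in siGL2 and at 297, 328 and 301 CPM in siLINC00152. It fell in all knockdown libraries (log2 fold change −0.55 ± 0.05, 1.47-fold lower, adjusted p = 1.39e-09, edgeR), and 16.5% of its exonic bases are overlapped on the opposite strand. IER5 and IER2 rose slightly, by log2 fold changes of 0.20 ± 0.06 and 0.16 ± 0.05. Scaled by library size alone, IER2 had an adjusted p of 0.0987, and a transcript on the opposite strand overlaps 30.8% of its exonic bases. IER3, which had 1 to 5 counts in siGL2 and 3 to 9 in siLINC00152, was not tested.

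The EGF receptor ligands close the loop from early transcription back to the receptor. HBEGF (chr5:140332843-140346631, minus strand) was at 57.8, 56.0 and 57.9 CPM in siGL2 and at 37.6, 42.7 and 41.4 CPM in siLINC00152 (log2 fold change −0.50 ± 0.05, 1.41-fold lower, adjusted p = 6.8e-08, edgeR). EREG (chr4:74365143-74388751, plus strand), the more abundant ligand per length, was at 323, 312 and 343 CPM and at 231, 283 and 263 CPM (log2 fold change −0.33 ± 0.06, 1.26-fold lower, adjusted p = 0.00011, edgeR). Both fell, neither by as much as 1.5-fold, with no overlap between groups. Of all tested genes, 64.3% were called, 32.2% as lower, and 67.7% had groups that did not overlap. The summed level of HBEGF, EREG and AREG went from 94.6 ± 3.84 to 73.0 ± 6.77 RPKM (exact permutation test, two-sided, p = 0.1). AREG had 1 count in siLINC00152 C and 0 in the other libraries. The low counts of AREG and IER3 are not read as lack of expression, since how multi-mapping reads were treated was not given in the sources used here.

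Many early response RNAs are short-lived because proteins such as ZFP36 bind AU-rich words in the 3′ untranslated region (UTR). The word TATTTAT was searched in the 3′ UTR of 1 transcript per gene, that with the longest coding sequence in GENCODE 29. It was present in 21 of the 43 tested members (48.8%) and in 3943 of 12199 tested genes with such a UTR (32.3%). Among tested genes with a 3′ UTR between the quartiles of the members' lengths the share was 34.3%. The 48.8% covers members with 3′ UTRs of every length, so these shares are not matched for length. Within the tested members it was held by 12 of the 24 that rose and by 7 of the 12 that fell, so both directions carried it. The sites of 4 members are printed because SPRY2 and SPRY4 moved in opposite directions with the same word, and because the sites of DUSP1 and IER5 differ in how many words they hold, although their whole 3′ UTRs hold 3 and 4. Each is 30 bases of the transcript, 5′ to 3′, with the words in capitals.
DUSP1, from base 91 of the 3′ UTR: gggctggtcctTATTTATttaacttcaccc
SPRY2, from base 608: agtgtaaagaaTATTTATttgaagttttat
SPRY4, from base 1784: gtaaccataggTATTTATtgattggaggaa
IER5, from base 2561, with 3 overlapping words: cttccttTATTTATTTATTTATttaattat

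Of 104 other genes of the MAPK pathway on a list, 102 were tested, of which 46 rose and 30 fell, 26 did not pass, and the median log2 fold change was 0.10. That is 74.5% called, beside 64.3% of all tested genes. At least 1.5-fold changes were found in 21 that rose and 10 that fell, 30.4% beside 20.0% of all tested genes. SRF stands in 2 of the 6 sublists below, so their tested genes sum to 103. From receptor to RAS, 8 of 20 tested genes rose and 6 fell, so 70% were called and 20% were past 1.5-fold, close to the shares over all tested genes. FRS2, the docking protein of FGF receptors, rose by a log2 fold change of 0.68 ± 0.05. EGFR was at 162, 108 and 115 CPM in siGL2 and at 124, 117 and 125 CPM in siLINC00152, with siGL2 A above all the others, and did not pass (log2 fold change −0.07 ± 0.18).

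From RAF to ERK, 5 of 13 rose and 4 fell, 69.2% called and 15.4% past 1.5-fold. PEBP1, a kinase inhibitor protein, fell from 252 ± 8.42 to 147 ± 7.44 CPM (log2 fold change −0.78 ± 0.05), and BRAF rose by a log2 fold change of 0.55 ± 0.07. Of the JNK and p38 kinases, 4 of 14 rose and 8 fell (85.7% called, 35.7% past 1.5-fold), with a median of −0.20. This group had 3 falls of at least 2-fold: MAP2K6, a kinase that activates p38 (2.05 ± 0.0981 to 0.898 ± 0.153 CPM), MAPK11, which is p38 beta (14.1 ± 0.607 to 6.54 ± 0.813 CPM), and MAP3K5, the stress kinase ASK1 (17.2 ± 0.907 to 8.52 ± 1.05 CPM). Their log2 fold changes were −1.18 ± 0.17, −1.11 ± 0.08 and −1.02 ± 0.08.

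Of the kinase effectors and transcription factors, 9 of 20 rose and 7 fell (80% called, 20% past 1.5-fold). MKNK2, a kinase that phosphorylates the translation factor EIF4E, rose from 50.1 ± 1.85 to 119 ± 8.48 CPM (log2 fold change 1.25 ± 0.05). MKL1, a cofactor of serum response factor, rose by a log2 fold change of 0.76 ± 0.06. Other early response genes, outside the members, had 13 rises and 4 falls among 23 tested (73.9% called, 52.2% past 1.5-fold), with a median of 0.31. BTG2, an antiproliferative early gene, rose from 5.19 ± 0.312 to 21.9 ± 1.60 CPM (log2 fold change 2.07 ± 0.08). KLF4, a zinc finger factor, rose from 16.7 ± 0.488 to 55.8 ± 1.99 CPM, RHOB, a small GTPase, from 10.2 to 32.3 CPM (log2 fold change 1.66 ± 0.07), and NR4A2, an orphan nuclear receptor, from 1.51 ± 0.237 to 3.71 ± 0.101 CPM.

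Among the other ligands and feedback genes of the EGF receptor, 7 of 13 rose and 2 fell (69.2% called, 30.8% past 1.5-fold). ERRFI1, which binds and inhibits the EGF receptor kinase, rose from 432 ± 16.4 to 1345 ± 28.5 CPM (log2 fold change 1.64 ± 0.04, adjusted p = 5.71e-17, edgeR). ADAM17, the protease that releases HBEGF and other ligands from the cell surface, rose from 53.4 ± 1.81 to 128 ± 4.85 CPM (log2 fold change 1.26 ± 0.05, adjusted p = 1.06e-14, edgeR). Of the ligands in this list, TGFA, which also binds the EGF receptor, rose from 264 ± 4.34 to 363 ± 13.7 CPM (log2 fold change 0.46 ± 0.04). BTC fell from 2.39 ± 0.258 to 1.70 ± 0.136 CPM (−0.48 ± 0.14), and NRG1 from 90.9 ± 7.06 to 73.3 ± 4.38 CPM (−0.31 ± 0.06). EGF and EPGN did not pass. TGFA was thus the ligand of this list that was called in the direction opposite to HBEGF and EREG.

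**Figure D4:**
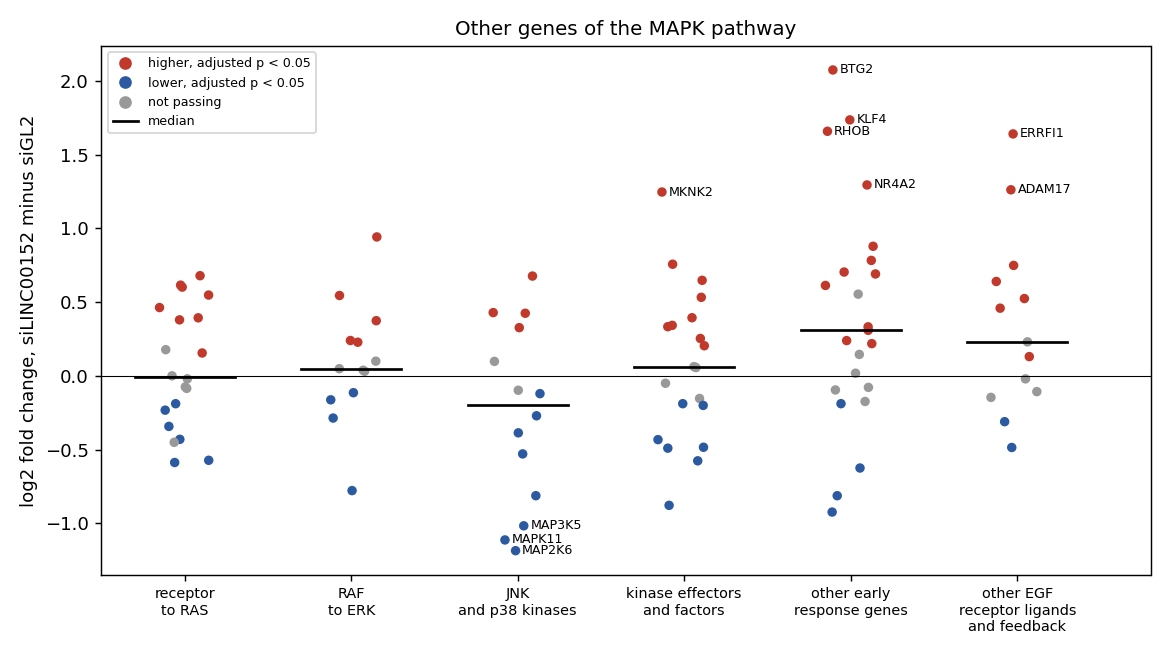
Log2 fold change, siLINC00152 minus siGL2, of the 102 tested pathway genes that are not members, 1 point per gene in each of its sublists (6 in all, with SRF drawn in 2 of them), with a line at each median. The JNK and p38 kinases have the lowest median, −0.20, and the other early response genes the highest, 0.31, with BTG2 at the top at 2.07.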

How the data were processed

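PolyA RNA of 6 U87 libraries was sequenced in directional, paired-end libraries (75 bases per read), per the labels' protocols. Each deposited table holds 1 library's raw counts by gene symbol. The submitters' processing notes name bcl2fastq, HISAT, HTSeq, DESeq and hg38, without versions. The annotation, the strand setting and the rule for multi-mapping reads were not given in the sources used here.

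Counts were filtered with filterByExpr (at least 10 counts, total 15), scaled by TMM and tested with edgeR 4.0.16 (robust quasi-likelihood, all 6 libraries, no covariate, two-sided) in R 4.3.3, with Benjamini-Hochberg adjustment over 14078 genes. A standard error is the size of a log2 fold change divided by the square root of F. The threshold was an adjusted p of 0.05, and limits on 0 counts cover counting error only. Alternatives were DESeq2 1.42.0, library size alone, no filter, a stricter filter, the replicate letter as a block and leaving out each library. Shares were compared with exact permutation tests. On simulated data for this comparison with 13896 tested genes, 88% of 1.25-fold and 100% of 1.5-fold, 2-fold and 4-fold changes (50 genes each) were recovered. In the same data 10 of 13696 unchanged genes were called. The changed genes were drawn only from genes above a set CPM in siGL2. Recovery was therefore not simulated for low-level members such as EGR3, DUSP27 and FOSB.

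The members, lists and tests were chosen with earlier results of these data known. Values in every library are given for members past the test with at least 1.5-fold change and for the most abundant member of each role group. Of the other pathway genes, those with at least 2-fold change and the 2 with the smallest p in each sublist are named, except 1 that is not reported here. EGFR, TGFA, BTC, NRG1, EGF, EPGN, HOOK2 and SLC35E4, other members with values in each library, and the observations below were picked after their values were seen. All 52 symbols matched GENCODE 29, and exonic overlap by opposite-strand genes is given from 10% upward. For DUSP28 it was 12.5%, by ANKMY1, and for IER3 it was 26.5%, by IER3-AS1.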

Additional observations from a re-analysis of the deposited data

How the results depend on the processing

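Over all alternatives the number of members that rose was between 21 and 25 and the number that fell between 12 and 14. With at least 1.5-fold change it was 9 to 12 and 4 to 6. LINC00152 kept a log2 fold change between −2.57 and −2.45. The members whose call changed under at least 1 alternative were DUSP8, DUSP12, DUSP19, DUSP22, SPRED1, ETV4, FOSB, JUN and IER2. DUSP8, not tested in the main comparison, was called higher with no filter on low counts (adjusted p = 0.0361, edgeR). It was also called higher without siGL2 B, siGL2 C or siLINC00152 A (adjusted p = 0.0464, 0.0318 and 0.0122, edgeR). Those leave-out calls are no support for a rise, since DUSP8 met the count filter there only through siLINC00152 B and C. With at least 1 CPM asked of 3 libraries, FOSB, DUSP27 and EGR3 were not tested. The log2 fold change of EGR3, which passed in none, turned positive without siGL2 A, siLINC00152 B or siLINC00152 C, and leaving out 1 library gave −0.27 to 0.063. Library size alone moved the median of all genes by −0.0671 and called 3755 genes higher and 5389 lower, against 4529 and 4529 with TMM. The cause was not tested.

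With the replicate letter as a block, 24 members rose and 13 fell, the added one being SPRED1 (adjusted p = 0.0491, edgeR). The letters were not used as pairs: the deviations of same-letter libraries correlated at 0.134 for A, −0.0490 for B and 0.153 for C across genes. The siGL2 libraries A and C correlated best with their own letter and B with A (0.0547). Depth limits the members under about 1 CPM, namely EGR3, DUSP27 and FOSB.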

Other observations

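Relatives of the members, chosen after their values were seen, also moved in both directions. NAB1 and NAB2 are corepressors that bind EGR factors. NAB1 rose from 71.4 ± 1.32 to 102 ± 8.10 CPM (log2 fold change 0.52 ± 0.05, adjusted p = 4.73e-08, edgeR), and NAB2 fell from 52.5 ± 3.14 to 35.0 ± 0.339 CPM (−0.59 ± 0.05, adjusted p = 5.79e-09). SPRY4-IT1, a noncoding RNA listed within the SPRY4 locus, fell with SPRY4, from 1.35 ± 0.311 to 0.580 ± 0.0468 CPM (−1.22 ± 0.22, adjusted p = 5.28e-05). PTPRR, a tyrosine phosphatase that acts on ERK, rose from 1.97 ± 0.129 to 4.64 ± 0.704 CPM (1.23 ± 0.13, adjusted p = 5.16e-08), and STYX, a catalytically dead relative of the DUSPs, rose by a log2 fold change of 0.54 ± 0.06.

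Of the small MAF factors, which share the basic leucine zipper of AP-1, MAFK rose from 35.3 to 62.8 CPM (log2 fold change 0.83 ± 0.06) and MAFF fell from 29.9 to 22.5 CPM (−0.41 ± 0.06). MAFG fell slightly, from 73.5 to 67.3 CPM (−0.13 ± 0.05, adjusted p = 0.0354, edgeR). BATF3, an AP-1 partner of JUN, fell by 0.49 ± 0.08 on the log2 scale. PHLDA3, a relative of PHLDA1 and a known p53 target, rose from 77.8 to 110 CPM (0.50 ± 0.06), while PHLDA1 fell.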
